A study of Mus musculus with 6 samples.

Results

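The membrane-associated guanylate kinase (MAGUK) scaffolds and a binding partner were followed in the hippocampus after adeno-associated virus (AAV) delivery of short hairpin RNA (shRNA). The 10 genes were taken by name from the 52550 genes of the deposited count table. They were Dlg1, Dlg2, Dlg3, Dlg4, Cask, Magi1, Magi2, Magi3, Tjp1 and Lin7b, and all 102 events listed for them among 40961 splicing events were used. The 6 libraries came from hippocampus of male C57BL/6 J mice injected in both CA1 areas at 8 weeks of age. The 3 control libraries are labelled wild type and, by the study's methods, carried virus with control shRNA, given at a higher titre than the other virus. The 3 other libraries are labelled as knockdown of hnRNPDL, called L-DL KD here after the long isoform that the shRNA was designed against, although another label field writes them as knockout. The shRNAs were driven by H1, a promoter that is not restricted to neurons, and the tissue held injected and uninjected cells. RNA was selected by oligo(dT).

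MAGUK proteins hold receptors, channels and adhesion proteins at sites of cell contact. They carry PDZ domains that bind the tails of membrane proteins, and an SH3 and a guanylate kinase-like domain, the order of which differs in the MAGI proteins. In neurons of the hippocampus the Dlg proteins anchor glutamate receptors at the postsynaptic density, Cask works with Lin7 and Mint proteins, and Tjp1 (ZO-1) is best known from tight junctions. Many of their exons are alternative and are used differently between tissues.

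Reads counted on genes ranged from 16052529 to 17913064 per library. Hnrnpdl, the targeted gene, was at 177 ± 6.42 CPM (SD, n = 3) in control and 180 ± 33.9 CPM (SD, n = 3) in L-DL KD libraries. CPM is a gene's count as a rate per library, scaled by the TMM method. The count covers all isoforms, so it does not measure the long isoform, and the knockdown named in the labels was not visible in it. Markers of other cells moved with the groups. All 12 of 12 microglia markers were higher in L-DL KD, with sums of 1440 to 1799 CPM in control and 3018 to 3931 CPM in L-DL KD. Of 12 neuron markers 8 were lower and 2 higher, and their sums were 5791 to 6067 CPM in control against 4256 to 4940 CPM in L-DL KD. Fewer cells of a type and less RNA per cell cannot be told apart in such bulk tissue, and the part of these shifts in the results below was not tested. Replicates are separate samples, and nothing in the labels says more, so p-values measure the spread between these samples, which may be technical.

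The alternative segments on which the splicing results turn are shown first, since their lengths and neighbours define what was measured. Each is written 5′ to 3′ on its gene's strand as in GENCODE M21 (GRCm38), with the alternative bases in capitals and 12 bases of the flanking exons of the named transcript in lower case. The 99 nt exon of Dlg1 is exon 6 of Dlg1-202 (chr16:31771757-31771855, plus strand). The next exons are listed as alternative and lie farther along the same gene. They are the 100 nt exon at chr16:31846834-31846933, the 34 nt exon at chr16:31847636-31847669, the 42 nt exon at chr16:31853843-31853884 and the 36 nt exon at chr16:31854653-31854688. All 5 lie wholly in annotated coding sequence.
Dlg1 99 nt exon: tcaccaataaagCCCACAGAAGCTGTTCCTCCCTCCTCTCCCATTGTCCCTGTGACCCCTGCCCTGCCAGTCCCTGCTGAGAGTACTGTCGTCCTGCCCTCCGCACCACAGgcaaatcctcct
Dlg1 100 nt exon: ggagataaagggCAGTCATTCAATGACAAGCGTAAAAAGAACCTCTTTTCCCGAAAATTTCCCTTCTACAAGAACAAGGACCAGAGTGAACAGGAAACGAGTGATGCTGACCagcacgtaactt
Dlg1 34 nt exon: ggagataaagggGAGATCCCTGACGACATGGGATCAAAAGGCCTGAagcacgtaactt
Dlg1 42 nt exon: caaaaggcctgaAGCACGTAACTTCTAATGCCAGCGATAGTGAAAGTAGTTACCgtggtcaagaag
Dlg1 36 nt exon: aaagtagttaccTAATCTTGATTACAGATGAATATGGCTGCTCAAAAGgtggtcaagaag
The 100 nt and the 34 nt exons are preceded and followed by the same bases in these transcripts, as alternatives to each other.

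In Dlg3, Dlg4 and Cask the segments were the 54 nt exon 2 of Dlg3-202 (chrX:100771307-100771360, plus strand), 9 bases added by an upstream 3′ splice site of Dlg4 (chr11:70030595-70030603, plus strand), the 110 nt exon of Dlg4 (chr11:70043658-70043767), and a 69 nt and a 36 nt exon of Cask (chrX:13552373-13552441 and chrX:13550947-13550982, minus strand). The 110 nt exon is exon 18 of Dlg4-203 and exon 17 of Dlg4-201. It is the exon of PSD-95 known to be repressed by the products of Ptbp1 and Ptbp2 before neurons mature. Only it, among these segments, has a length that is not a whole number of codons.
Dlg3 54 nt exon: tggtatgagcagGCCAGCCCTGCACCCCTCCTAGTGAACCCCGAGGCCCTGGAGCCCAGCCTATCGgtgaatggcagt
Dlg4 9 nt segment: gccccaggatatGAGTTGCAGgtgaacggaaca
Dlg4 110 nt exon: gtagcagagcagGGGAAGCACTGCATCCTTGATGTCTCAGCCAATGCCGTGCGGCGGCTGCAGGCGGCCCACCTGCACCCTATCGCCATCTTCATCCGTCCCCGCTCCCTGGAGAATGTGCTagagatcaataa
Cask 69 nt exon: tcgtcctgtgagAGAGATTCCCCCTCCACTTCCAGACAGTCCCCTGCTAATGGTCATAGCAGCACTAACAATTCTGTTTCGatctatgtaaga
Cask 36 nt exon: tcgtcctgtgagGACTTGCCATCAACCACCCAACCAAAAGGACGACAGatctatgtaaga
Both Cask exons join the same neighbours in the transcripts shown.

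The first question was whether the level of each scaffold differed between the groups. Of the 10 genes, 4 were lower (Dlg2, Dlg4, Magi2 and Magi3) and 1 was higher (Magi1) in L-DL KD at an adjusted p under 0.05. The test was the quasi-likelihood test of edgeR, adjusted by Benjamini-Hochberg over 17621 genes. Across all genes tested, 30.5% were called, 15.6% as higher and 15.0% as lower, so calls in general were frequent. The median log2 fold change was -0.22 over the 10 genes and 0.006 over all genes tested. Values of the 2 groups lay apart for 6 of the 10 genes, against 47.2% of all genes.

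Dlg4, which encodes PSD-95, the main scaffold of excitatory synapses, was at 664, 600.2 and 600.3 CPM in the control libraries and at 472, 440 and 440 CPM in the L-DL KD libraries. All control values were above all L-DL KD values. The log2 fold change was -0.46 (SE 0.07, adjusted p = 0.00259 from edgeR). Dlg2, which encodes PSD-93, a close relative at the same synapses, was at 294, 287 and 288 CPM in control and at 211, 211 and 178 CPM in L-DL KD. These groups did not overlap either, and the log2 fold change was -0.54 (SE 0.08, adjusted p = 0.00227 from edgeR).

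The other Dlg genes did not pass the test. Dlg1, which encodes SAP97, a scaffold involved in receptor trafficking, was at 113, 125.0 and 124 CPM in control and at 125.0, 160 and 146 CPM in L-DL KD, and the lowest L-DL KD library reached no higher than the highest control. Its log2 fold change was 0.25 (SE 0.1, adjusted p = 0.0914 from edgeR). Dlg3, which encodes SAP102, a scaffold of NMDA receptors that is prominent early in development, was at 207, 206 and 212 CPM in control and at 239, 211 and 216 CPM in L-DL KD. The groups overlapped, at a log2 fold change of 0.09 (SE 0.07, adjusted p = 0.359 from edgeR).

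Under TMM scaling with all 6 libraries, Magi3 had the log2 fold change of largest size among the 10 genes. This MAGI scaffold of cell junctions was at 53.1, 53.1 and 55.6 CPM in control and at 33.4, 31.8 and 30.6 CPM in L-DL KD. The groups were far apart relative to their spread, at a log2 fold change of -0.76 (SE 0.07, adjusted p = 0.000369 from edgeR). Magi2 (S-SCAM), a synaptic scaffold, was at 133, 126 and 126 CPM in control and at 76.4, 98.9 and 74.4 CPM in L-DL KD. Its second L-DL KD library was nearest to the controls but still below them, and the log2 fold change was -0.63 (SE 0.11, adjusted p = 0.00469 from edgeR).

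Magi1, a scaffold of epithelial and neuronal junctions, moved the other way. It was at 78.9, 83.5 and 85.0 CPM in control and at 116, 102 and 94.9 CPM in L-DL KD, so that every L-DL KD library was above every control library. The log2 fold change was 0.34 (SE 0.09, adjusted p = 0.0193 from edgeR). This call was lost when any single control library was left out, at log2 fold changes of 0.31, 0.35 and 0.36 and adjusted p of 0.0801, 0.0636 and 0.0531.

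Cask, the scaffold of the presynaptic complex with Mint and Lin7, was at 51.3, 56.1 and 55.5 CPM in control and at 57.0, 55.9 and 51.9 CPM in L-DL KD. The groups overlapped (log2 fold change 0.02, SE 0.07, adjusted p = 0.893 from edgeR). Lin7b, which bridges Cask to membrane proteins, was at 16.6, 17.1 and 17.3 CPM in control and at 14.9, 10.7 and 6.79 CPM in L-DL KD. All its L-DL KD values were below the controls, but they spread widely, and the log2 fold change of -0.65 (SE 0.25) had an adjusted p of 0.0814 from edgeR. Without L-DL KD replicate 1 it was -0.95 and passed, at an adjusted p of 0.00521, while without L-DL KD replicate 3 it was -0.41, at an adjusted p of 0.123. With a control library left out the adjusted p was 0.158 to 0.178. Tjp1 was at 184, 194 and 185 CPM in control and at 186, 234 and 240 CPM in L-DL KD, of which the first lay within the control range. Its log2 fold change was 0.23 (SE 0.1, adjusted p = 0.128 from edgeR). Without L-DL KD replicate 1, Tjp1 and Dlg1 each had a log2 fold change of 0.34, at adjusted p of 0.00417 and 0.00879. Without replicate 2 they were at 0.19 and 0.17 (adjusted p of 0.283 and 0.245), and without replicate 3 at 0.16 and 0.24 (0.290 and 0.162). Of the endothelial and pericyte markers, cells in which Tjp1 is also found, 6 of 10 were higher and none lower, with sums of 432 to 467 CPM in control and 573 to 688 CPM in L-DL KD.

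**Figure D1:**
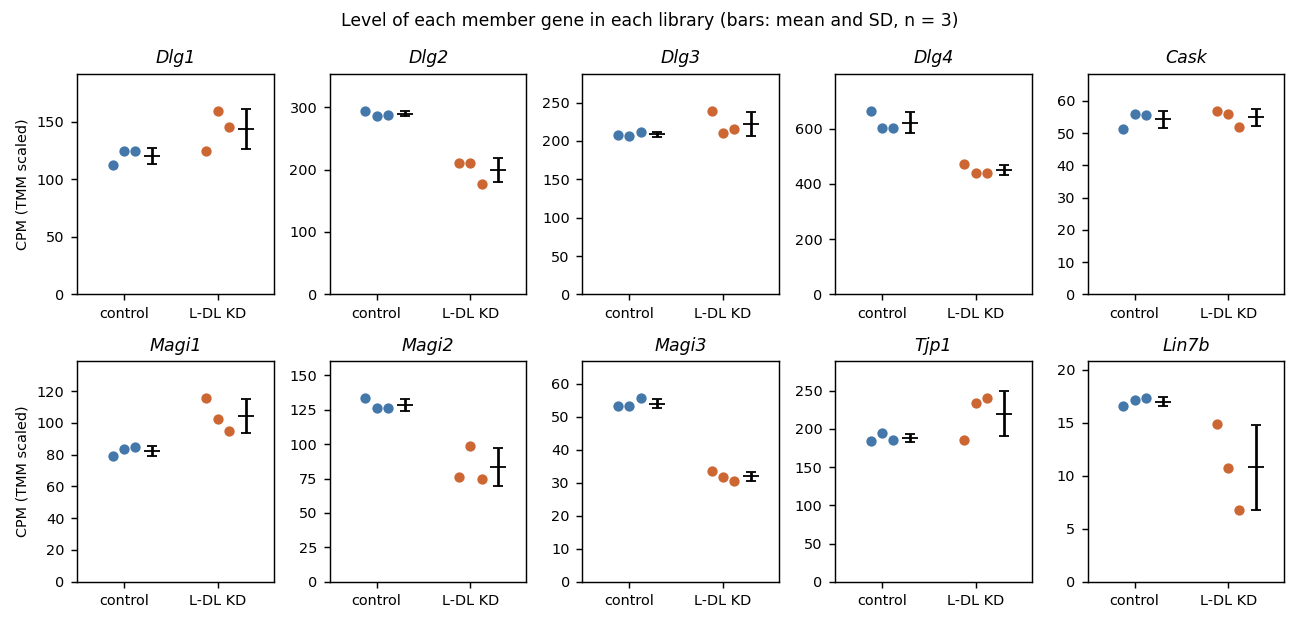
CPM (TMM scaled) of each of the 10 genes in each of the 6 libraries, with 1 point a library on axes from 0 and bars for the mean and SD (n = 3). Dlg2, Dlg4, Magi2, Magi3 and Lin7b lay wholly lower and Magi1 wholly higher in L-DL KD, and the other 4 genes overlapped.

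The size of these changes depended on the scaling. When libraries were scaled to the summed counts of the neuron markers, the median log2 fold change of all genes moved to 0.35 and the calls among the 10 genes became 5 higher and 1 lower. The calls of Dlg2 (-0.2, adjusted p = 0.0622), Dlg4 (-0.12, adjusted p = 0.297) and Magi2 (-0.29, adjusted p = 0.0508) were lost, all in the direction of the first fit and below the shifted median. Magi3 was still called lower (-0.41, adjusted p = 0.00957), and Dlg1, Dlg3, Cask, Magi1 and Tjp1 were called higher at 0.6, 0.44, 0.36, 0.68 and 0.58. Cask, at 0.36, sat at the median of all genes.

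**Figure D2:**
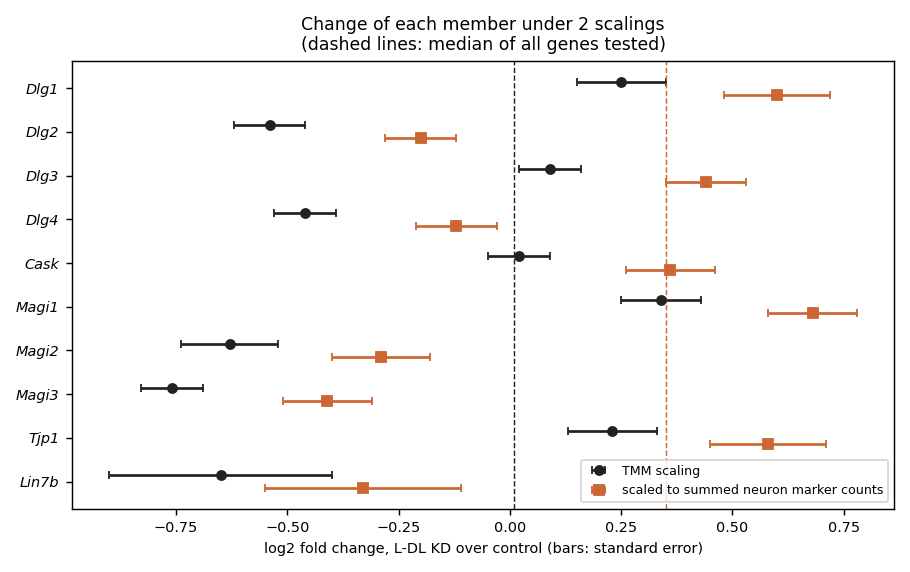
Log2 fold change of each gene, L-DL KD over control, with its standard error, under TMM scaling (circles) and under scaling to the summed neuron marker counts (squares), and the median of all genes tested as dashed lines at 0.01 and 0.35. All genes shift to the right by a similar amount, and Dlg2, Dlg4, Magi2, Magi3 and Lin7b stay left of the median in both.

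Ratios between paralogs within a library do not depend on the scaling. The pairs were chosen after the values had been seen, and levels were set per kb of exon. The Dlg4 level per kb was 4.78, 3.89 and 3.91 times that of Dlg1 in control and 3.06, 2.23 and 2.45 times in L-DL KD. Against Dlg3 the Dlg4 ratio was 1.41, 1.28 and 1.25 in control and 0.869, 0.919 and 0.899 in L-DL KD, so that the order of the pair turned in all 3 libraries. The ratio of Magi1 to Magi3 was 1.23 ± 0.0353 (SD, n = 3) in control and 2.62 ± 0.145 (SD, n = 3) in L-DL KD. Groups lay apart for these 3 ratios, each at the smallest p that 3 against 3 allows in a two-sided exact permutation test (0.1). The ratio of Dlg4 to Dlg2 was 2.64 ± 0.118 (SD, n = 3) in control and 2.79 ± 0.246 (SD, n = 3) in L-DL KD and overlapped (exact permutation p = 0.7), as did that of Magi2 to Magi3 (1.79 ± 0.0932 and 1.96 ± 0.332, SD, n = 3, exact permutation p = 0.6).

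**Figure D3:**
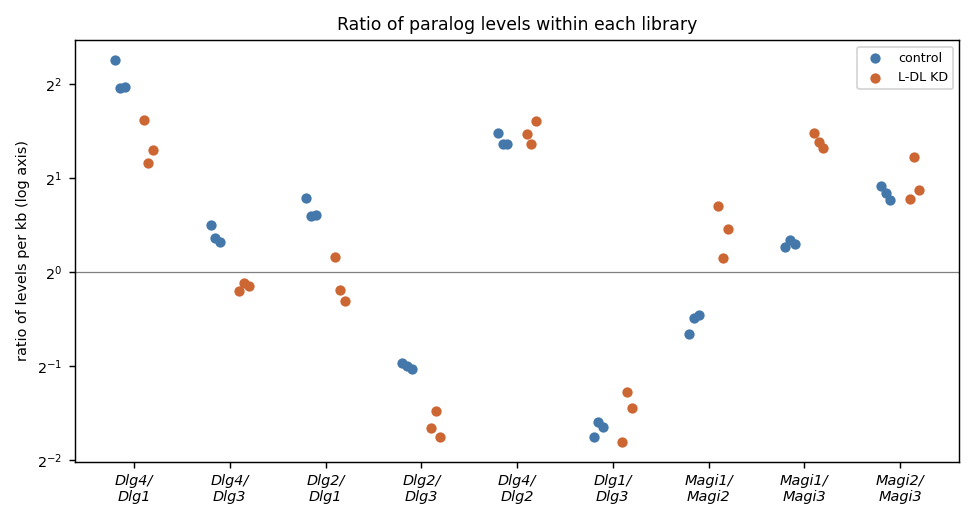
Ratio of the levels per kb of 2 paralogs within each library, on a log axis, with 1 point a library. The ratios of Dlg4 or Dlg2 to Dlg1 or Dlg3 were lower and those of Magi1 to Magi2 or Magi3 higher in every L-DL KD library, while Dlg4 to Dlg2, Dlg1 to Dlg3 and Magi2 to Magi3 overlapped.

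By level per kb of exon in the control libraries, Dlg4 was first at 46.9 ± 2.79 CPM per kb (SD, n = 3), followed by Dlg3 at 35.7 ± 0.524 CPM per kb, Tjp1 at 24.1 ± 0.714 CPM per kb and Dlg2 at 17.8 ± 0.260 CPM per kb. Lin7b (11.6), Magi2 (11.3) and Dlg1 (11.2 CPM per kb) came next, and neighbours among these 3 did not differ beyond their spread. Magi1 (7.80), Magi3 (6.33) and Cask (5.94 CPM per kb) closed the order. In L-DL KD Dlg3 stood first at 38.0 ± 2.59 CPM per kb, above Dlg4 at 34.0 ± 1.37 CPM per kb, and Magi3 was last at 3.75 ± 0.166 CPM per kb (SD, n = 3). Lengths are those of all annotated exons together, so a gene that uses few of its exons is understated.

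As a description over the 6 libraries, which share the group difference, the log2 CPM of Magi3 was most like that of Dlg2 and Dlg4 (Pearson r = 0.97 each), and Dlg1 was most like Tjp1 (r = 0.92).

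The partners of these scaffolds were counted in lists. Of 22 genes listed as partners of PSD-95, not all of them direct binders, 14 were lower (15.0% of all genes were) and none higher. Their median log2 fold change was -0.36. The largest falls were those of Dlgap3, a postsynaptic scaffold (249 ± 16.4 to 68.5 ± 27.4 CPM, SD, n = 3, log2 fold change -1.86), and Adam23, a receptor of LGI1 (102 ± 5.55 to 36.3 ± 9.99 CPM, SD, n = 3, log2 fold change -1.49). Of 13 partners of the CASK complex, 5 were called, all lower, against 30.5% of all genes called in either direction and 15.0% as lower. Their median was -0.1. Caskin1 (-1.16, SE 0.08) and Apba1, which encodes Mint1 (-1.08, SE 0.12), fell furthest, while Cask itself was at 0.02.

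Of 9 enzymes that attach palmitate to PSD-95 or remove it, 3 were lower and 1 was higher, against 15.0% and 15.6% of all genes, at a median of -0.11. Abhd17a, a depalmitoylase (-0.86, SE 0.11), and Zdhhc14 (-0.56, SE 0.14) fell, and Zdhhc8 rose (0.57, SE 0.11). Of 14 further MAGUK superfamily genes, Mpp3 was higher (0.69, SE 0.08), Mpp6 was lower (-0.62, SE 0.14) and 12 were not called, at a median of -0.03. Of the 3 polypyrimidine tract binding proteins, of which Ptbp1 and Ptbp2 are known to repress exon 18 of Dlg4, Ptbp1 rose from 41.2 ± 0.919 to 61.6 ± 9.59 CPM (SD, n = 3, log2 fold change 0.58), Ptbp3 rose by 0.47 and Ptbp2, the neuronal form, fell from 93.0 ± 3.21 to 73.2 ± 2.45 CPM (SD, n = 3, log2 fold change -0.35). Lists of neuronal subtypes were lower in part, with 4 of 8 CA1 pyramidal, 4 of 8 dentate granule and 5 of 8 interneuron markers lower and 1, 1 and 0 higher. Astrocyte markers were split (4 lower and 2 higher of 9), as were those of oligodendrocytes (1 lower and 2 higher of 9). None of the 7 choroid plexus markers was called, and their sums ranged from 445 to 4657 CPM in control and from 32.5 to 5226 CPM in L-DL KD. The part of these cell type shifts in the changes of the scaffold genes was not tested.

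The second question was whether the scaffolds were spliced differently. Inclusion is given as PSI, the share of the inclusion form among junction reads after division by the effective length of each form. The table does not name its groups, and the first group was taken as L-DL KD and the second as control, since the study defines the PSI change as knockdown minus control. If that order were wrong, every PSI change here would turn its sign. The table's libraries carry no replicate numbers, and values are given in the order listed. Of the 102 events, 58 had enough reads to be tested (on average 20 or more per library, with each form at 1 or more), and they covered 9 of the 10 genes. Among the rest, 1 untested Dlg2 event carries another Ensembl identifier than the gene. None of the 58 passed an adjusted p of 0.05 in edgeR's quasi-likelihood test of inclusion, and 0.255% of all 18829 tested events did. The smallest adjusted p of the 58 was 0.134. At an unadjusted p under 0.05 there were 11 of 58, against 13.3% of all events, and limma called 12 at this level. Groups did not overlap in 15 of the 58 (18.4% of all events), and in 11 of them with a PSI change of at least 0.1 (8.26% of all events). Events of 1 gene share reads, so these counts are not of independent events.

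Dlg1 held 5 of the 11 events. Its 99 nt exon was included at a PSI of 0.352, 0.219 and 0.251 in control and of 0.563, 0.420 and 0.572 in L-DL KD, with every L-DL KD value above the controls. The difference was 0.244 (unadjusted p = 0.00815, adjusted p = 0.217 from edgeR, mean 100.2 counts per library). The same exon counted against another neighbour gave a difference of 0.263, but there the groups overlapped, at a mean of 42.7 counts per library (unadjusted p = 0.0441, adjusted p = 0.368 from edgeR). The 36 nt exon went the other way, at 0.407, 0.408 and 0.369 in control and at 0.208, 0.255 and 0.192 in L-DL KD. That difference was -0.177 (unadjusted p = 0.00520, adjusted p = 0.182 from edgeR).

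The remaining Dlg1 events lay within the same stretch of exons, and share reads. Of the 100 nt and 34 nt exons, listed as an exclusive pair, the share of the 100 nt exon was 0.214, 0.288 and 0.251 in control and 0.380, 0.357 and 0.345 in L-DL KD (difference 0.110, unadjusted p = 0.0444, adjusted p = 0.369 from edgeR). The 34 nt exon was also counted as a skipped exon after a 97 nt form of the 100 nt exon. Its PSI there was 0.426 ± 0.0862 in control and 0.309 ± 0.0109 in L-DL KD (SD, n = 3, exact permutation p = 0.1, unadjusted edgeR p = 0.133). The inclusion form of that event holds the 97 nt form and the 34 nt exon together. Its skipping form joins the 97 nt form to the 42 nt exon, so the event is not separate from the listed pair. A further event, listed as an exclusive pair, set the 42 nt exon against a 51 nt exon (chr16:31856441-31856491). Its PSI was 0.0936, 0.172 and 0.113 in control and 0.248, 0.254 and 0.315 in L-DL KD (difference 0.146, unadjusted p = 0.0168, adjusted p = 0.279 from edgeR). However, Dlg1-201 holds both exons, as exons 19 and 20. Between the 100 nt and the 51 nt exons, the 42 nt exon had a PSI of 1 in control and 0.997 in L-DL KD. The event therefore does not measure a choice between the 42 nt and 51 nt exons. All L-DL KD values lay above the controls in both events listed as exclusive pairs.

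An exon of the same length, 42 nt, is listed in Dlg1, Dlg2 and Dlg3, and the sequences are set side by side because its measured inclusion differed with the exon before it. The exons lie at chr16:31853843-31853884, chr7:92420632-92420673 and chrX:100811502-100811543, all on the plus strand, and are written here in capitals throughout.
Dlg1 42 nt: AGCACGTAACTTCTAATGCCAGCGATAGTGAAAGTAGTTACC
Dlg2 42 nt: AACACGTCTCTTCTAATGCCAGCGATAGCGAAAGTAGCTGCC
Dlg3 42 nt: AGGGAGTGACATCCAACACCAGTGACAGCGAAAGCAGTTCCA
The Dlg1 and Dlg2 exons were identical at 36 of 42 positions, and that of Dlg3 was identical to them at 28 and 26 positions. As a skipped exon after an upstream exon of 46 nt, its PSI was 0.0375 ± 0.0148 in control and 0.0669 ± 0.0198 in L-DL KD in Dlg2, and 0.343 ± 0.0658 and 0.445 ± 0.140 in Dlg3 (SD, n = 3). After an upstream exon of 100 nt it was 1 and 0.997 ± 0.00602 in Dlg1 (SD, n = 3), and 0.0972 ± 0.0372 and 0.165 ± 0.113 in Dlg2 (SD, n = 3), the latter on a mean of 15.8 counts per library. After one of 153 nt it was 0.990 ± 0.0178 and 1 in Dlg3 (SD, n = 3). Levels of the exon in different genes are therefore comparable only after like neighbours. No group difference of these 5 skipping events met the rule for naming events, and they were singled out after their values were seen.

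In Dlg3 the 54 nt exon was included at 0.518, 0.561 and 0.593 in control and at 0.403, 0.355 and 0.341 in L-DL KD. All L-DL KD values were below the controls, and the difference was -0.191 (unadjusted p = 0.0146, adjusted p = 0.266 from edgeR, mean 125 counts per library). No event of Dlg2 reached an unadjusted p under 0.05, and its 5 tested events changed by 0.0154 to 0.0665.

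Dlg4 was the most deeply covered, with a mean of 1629 counts per library on its 110 nt exon. This exon 18 of Dlg4-203 was included at 0.984, 0.991 and 0.990 in control and at 0.975, 0.956 and 0.970 in L-DL KD. Inclusion stayed near complete in every library, while all L-DL KD values lay below the controls by a difference of -0.0214 (unadjusted p = 0.00203, adjusted p = 0.134 from edgeR). Without the division by effective lengths the difference was -0.0126. The 9 bases at the alternative 3′ splice site were included at 0.857, 0.871 and 0.885 in control and at 0.908, 0.956 and 0.960 in L-DL KD. The groups did not overlap, at a difference of 0.0706 (unadjusted p = 0.00414, adjusted p = 0.164 from edgeR).

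In Cask the 69 nt and 36 nt exons were listed as an exclusive pair, although Cask-204 holds both, as exons 18 and 19. Values of that pair leaned toward the 36 nt exon in L-DL KD, with low counts and without passing the adjusted test. The share of the 69 nt exon was 0.293, 0.274 and 0.590 in control and 0.202, 0.0914 and 0.114 in L-DL KD (difference -0.250, unadjusted p = 0.0180, adjusted p = 0.287 from edgeR). The third control library stood above the other two, and without it the difference was -0.147. The 36 nt exon as a skipped exon had a PSI of 0.751, 0.674 and 0.426 in control and of 0.870, 0.965 and 0.919 in L-DL KD, with a mean of 31.7 counts per library (difference 0.301, unadjusted p = 0.0114, adjusted p = 0.245 from edgeR). The 69 nt exon as a skipped exon was at 0.442 ± 0.0862 and 0.336 ± 0.0656 (SD, n = 3, exact permutation p = 0.1, unadjusted edgeR p = 0.291). That difference of -0.106 was -0.0564 without the third listed control and -0.0683 without the second listed L-DL KD library. Exon numbers of Cask depend on the transcript, and the 36 nt exon is exon 19 of Cask-204. The 116 nt exon 19 of Cask-212 (chrX:13544514-13544629) was included at a PSI of 1 in all controls and in 2 of 3 L-DL KD libraries and at 0.948 in the other. It had too few skipping reads to be tested, at a mean of 61.7 counts per library.

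Among the MAGI genes, a 22 nt extension of Magi2 (chr5:20661242-20661263) was at 0.0204 ± 0.0189 in control and 0.0578 ± 0.00150 in L-DL KD (SD, n = 3, exact permutation p = 0.1, unadjusted edgeR p = 0.0465). The event of the 111 nt exon that begins at the same base was at 0.460 ± 0.0320 and 0.564 ± 0.0131 (SD, n = 3, exact permutation p = 0.1, unadjusted edgeR p = 0.181). That exon is an 89 nt exon plus the 22 nt extension, and its event also counts the downstream junction that both forms share. Its PSI therefore does not measure use of the 111 nt exon. The event of the 89 nt exon, which shares these reads, was at 0.711 ± 0.0159 and 0.754 ± 0.0380 (SD, n = 3), and there the groups overlapped. The 91 nt exon 21 of Magi3-201 (chr3:104016602-104016692), of which 47 bases are annotated as coding, was at 0.719, 0.702 and 0.704 in control and at 0.620, 0.468 and 0.499 in L-DL KD, again without overlap (difference -0.179, unadjusted p = 0.101 from edgeR). None of the 10 tested events of Magi1 and none of the 5 of Tjp1 reached an unadjusted p under 0.05, and the single event of Lin7b was included at 0.998 in control and at 1 in L-DL KD on average and was not tested.

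**Figure D4:**
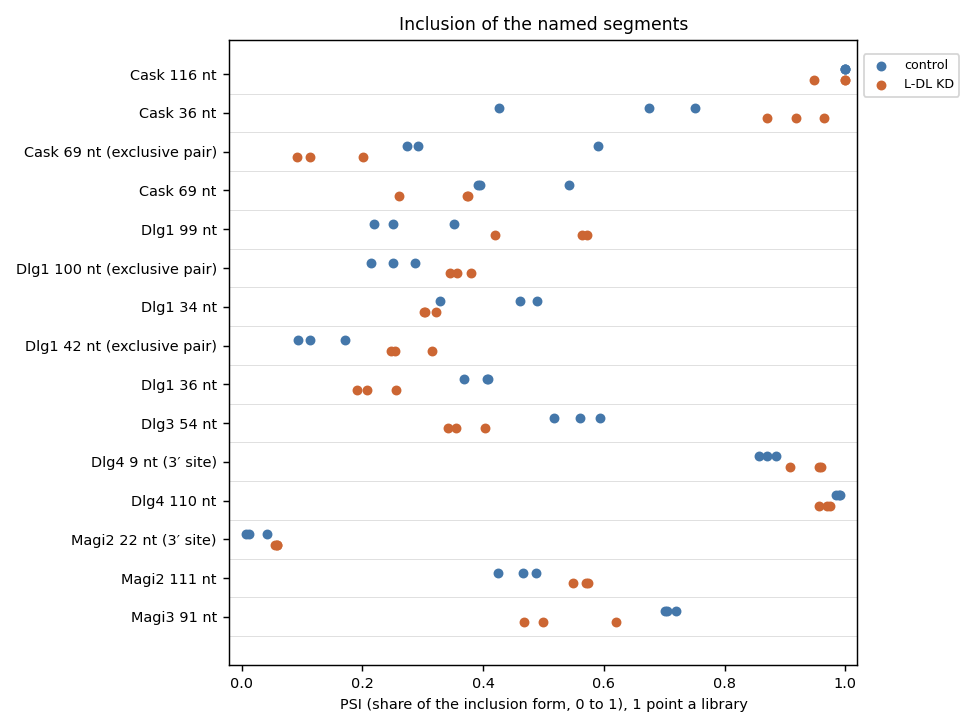
PSI of each named segment in each of the 6 libraries of the splicing table, with control above and L-DL KD below on each line. Events listed as exclusive pairs and alternative 3′ splice sites are marked. In 14 of 15 lines the groups lay apart, the exception being the 116 nt exon of Cask, and the rule for naming chose events for such gaps.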

How the data were processed

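RNA-seq of hippocampus from 3 control and 3 L-DL KD samples was analysed. For each Ensembl gene the authors gave unnormalized read counts, and they deposited a table of splicing events from rMATS with inclusion and skipping junction counts per library, form lengths, PSI, p-values and FDR. The submitters' processing notes name HISAT2 (version 2.1.0), Bowtie (version 1.1.2) and HTSeq (version 0.6.1). Whether counting used strand is not given in the sources used here. The authors' p-values, FDR and PSI differences were not used, and 0 columns of per-sample values were left unmapped. The members and gene lists were chosen with earlier results of these data known.

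A gene needed 10 or more counts in 3 or more libraries. Scaling was by TMM and the test was the quasi-likelihood test of edgeR (version 4.0.16). CPM per kb used the union of GENCODE M21 exons. PSI was recomputed from the counts and form lengths, and inclusion was tested in edgeR on both forms with an effect for each library. Both tests were tested on simulated data: of 200 genes changed 2-fold (of 17621) 61.5% were called, and of 200 events shifted by 1.5 in natural log odds (of 18829) 28.5% were called. Other tools were R (version 4.3.3), limma (version 3.58.1), DESeq2 (version 1.42.0), Python (version 3.11.15), scipy (version 1.17.1) and pandas (version 2.3.3).

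Events were named where the unadjusted p was under 0.05 or where groups did not overlap with a PSI change of at least 0.1. Where several events of a segment met this rule, the best covered of them was taken. Exon 18 of Dlg4-203 and exon 19 of Cask-212 were added. Of each partner list, the 2 largest rises and 2 largest falls among called genes were named. Bases of introns and a planned motif count upstream of exons were not analysed here, and exon bases of transcripts were shown instead. Alternatives were library size, neuron marker scaling, DESeq2, no filter, a replicate block, limma, other count minimums (10 and 50), exon skipping alone, PSI without lengths or from pooled counts, and leaving out each library.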

Additional observations from a re-analysis of the deposited data

How the results depend on the processing

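The number of genes called was 5379, and 3498 to 6477 with 1 library left out. Of the 10 scaffold genes 5 were called, and 4 to 8 with 1 library left out, with 8 (3 higher and 5 lower) without L-DL KD replicate 1. With the replicate number as a block, 4635 genes and 5 scaffold genes were called. The labels do not say that the numbers pair the samples. Deviations of same-numbered libraries from their group mean correlated at 0.09, 0.271 and -0.233, and those of other pairs at -0.372 to 0.269. Deviations within a group depend on one another, so these values cannot decide whether samples were paired. The split of all calls into higher and lower was 51.0% higher, 56.1% by library size and 88.8% with neuron marker scaling, which called 7669 genes. Lin7b was called lower by DESeq2 (adjusted p = 0.0303) and without a filter (0.0399). No called log2 fold change of the 10 genes reversed under any of these alternatives.

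For splicing, 48 events were called, 0 among exon skipping events alone, 0 by limma, and 0 to 52 with 1 library left out. None of these called a scaffold event. The 11 scaffold events at an unadjusted p under 0.05 became 5 among exon skipping events alone and 6 to 10 with 1 library left out, the lowest without the third listed control. No paired analysis was possible for splicing because its libraries carry no replicate numbers. Every named PSI change kept its sign with any library left out, except that of the 116 nt exon of Cask, which became 0.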
